A study of Mus musculus with 12 samples.

Results

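The comparison described here is between the genotypes of bone marrow-derived macrophages that received no stimulus. It holds 6 of the study's 12 RNA sequencing libraries, 3 from Hdac3f/f cells and 3 from Lyz2-Cre-Hdac3f/f cells, chosen by their labels alone, and all genes of the table were considered. The cells were bone marrow cells of mice 8 weeks old, grown in DMEM with 10 ng/ml M-CSF, the growth factor that turns marrow precursors into macrophages, and then kept for 4 h in complete medium. In Hdac3f/f mice recombination sites flank a part of the gene Hdac3, which is intact, so both genotypes carry the floxed allele. In Lyz2-Cre-Hdac3f/f mice (Lyz2-Cre below) the recombinase Cre is made from the lysozyme locus Lyz2, which is active in macrophages and also in neutrophils and monocytes. No group with Cre and an unfloxed Hdac3 gene was used here, so an effect of Cre or of its insertion and an effect of losing Hdac3 cannot be told apart. The labels do not say that the replicates came from separate animals, so the p-values measure a spread between libraries, which may be technical. That spread was estimated over all 12 libraries of the study, not the 6 compared here alone. The 6 remaining libraries, of the same genotypes given 500 ng/ml lipopolysaccharide (LPS) for 4 h, serve below as separate libraries in which the same genotype difference was read. Whether they came from the same animals as the untreated libraries is not given in the labels.

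HDAC3 removes acetyl groups from histones and other proteins, and is the enzyme of the corepressor complexes built on NCoR. Transcription factors such as the nuclear receptors Rev-erb, LXR and PPAR gamma bring these complexes to promoters and enhancers, where they hold target genes at a low level. In macrophages the enzyme is known both for restraining gene programmes in resting cells and for being needed for part of the response to LPS.

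The 6 libraries held between 16553432 and 18269900 counts, with 19425 to 21296 genes detected in each. Levels are given as CPM, a gene's count as parts per 1000000 of the library size after scaling by the trimmed mean of M values, and differences as log2 fold changes (Lyz2-Cre over Hdac3f/f) ± standard error, with n = 3 libraries in each genotype. A gene was called when its p from edgeR's quasi-likelihood test, adjusted by Benjamini-Hochberg over 14286 tested genes, was under 0.05. The first principal component of the 6 libraries held 51.2% of the variance and separated the genotypes. Hdac3f/f replicate 1 stood apart from the other controls: its median absolute log2 difference per gene was 0.23 to Hdac3f/f replicate 2 and 0.35 to replicate 3, against 0.22 to 0.24 to the Lyz2-Cre libraries. The macrophage markers Adgre1, which encodes F4/80 (1451 to 1908 CPM), Csf1r, the M-CSF receptor (1761 to 2372 CPM), and Cd68 (661 to 1053 CPM) were high in all 6 libraries. Other macrophage markers had lower levels, and some differed between the genotypes. Itgam was at 105 to 119 CPM in Hdac3f/f and 47.5 to 50.2 CPM in Lyz2-Cre cells, and was called lower. Mertk was at 109 to 142 against 172 to 199 CPM and was called higher. Fcgr1, Cd14 and Spi1 were not called.

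Hdac3 itself (ENSMUSG00000024454, mm10 chromosome 18, 37935844 to 37954988) was measured at 36.3, 39.2 and 39.7 CPM in the Hdac3f/f libraries and at 36.6, 33.1 and 35.1 CPM in the Lyz2-Cre libraries. The groups overlapped, through Lyz2-Cre replicate 1. The log2 fold change was -0.14 ± 0.09 (adjusted p = 0.352), so the count of the whole gene did not separate the genotypes. The count covers all exons and does not show how far the floxed part was removed. Lyz2 (ENSMUSG00000069516, chromosome 10, 117277331 to 117282321), the lysozyme gene from which Cre is made, stood at 9318, 10171 and 11990 CPM in Hdac3f/f cells and at 31.0, 5181 and 5637 CPM in Lyz2-Cre cells. All Lyz2-Cre libraries were below all controls, and Lyz2-Cre replicate 1 was far below the other two. With that spread the difference of -1.54 ± 0.96 was not called (adjusted p = 0.307). It was called without Lyz2-Cre replicate 1 (-0.96, adjusted p = 0.00648) and with no filter on low counts (-1.56, adjusted p = 0.00381), and with limma-voom the value was -3.43 (adjusted p = 0.127). The labels do not give the number of Cre alleles. Lyz1, the neighbouring lysozyme gene of near-identical sequence, rose from 20.6, 16.6 and 18.9 CPM to 42.4, 32.9 and 64.4 CPM (1.31 ± 0.28, adjusted p = 0.011), and how reads shared by the pair were assigned is not given in the sources used here.

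Among the partners of HDAC3, Tbl1xr1, a WD40 subunit of the NCoR complex, was at 44.8, 33.8 and 31.9 CPM in Hdac3f/f and 73.5, 72.0 and 60.2 CPM in Lyz2-Cre cells, with no overlap. It rose by 0.90 ± 0.17 on the log2 scale (adjusted p = 0.00603). Its paralog Tbl1x was 0.34 ± 0.10 higher (adjusted p = 0.0491), a call lost in 10 of 15 other settings. The scaffold gene Ncor1 (0.32 ± 0.14, adjusted p = 0.162) and the subunit gene Gps2 (-0.07 ± 0.11, adjusted p = 0.70) were not called. Of the 14 tested genes of other histone deacetylases, 2 fell and none rose in edgeR (2 higher at an unadjusted p under 0.05, 0 with DESeq2 and limma-voom). That count is near the share of all tested genes called in either direction, 11.8%. Hdac9, a class IIa member, went from 2.95, 3.26 and 2.86 CPM to 0.875, 1.02 and 0.995 CPM (-1.64 ± 0.28, adjusted p = 0.0035), and Hdac11 fell too (-1.498 ± 0.45), at under 3 CPM in every library. The call for Hdac11 was lost in 7 settings, among them 5 of the 6 that leave out a library.

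Across all genes, 732 were called higher in Lyz2-Cre cells (5.12% of those tested) and 952 lower (6.66%), together 11.8%. By more than 1 on the log2 scale, 312 were higher (2.18%) and 482 lower (3.37%). All 3 libraries of a genotype lay above all 3 of the other for many more genes, 2853 higher (20.0%) and 2357 lower (16.5%) in Lyz2-Cre cells. The median log2 fold change of all tested genes was 0.03. Of called genes, 89.8% of those higher and 94.0% of those lower were protein coding, against 86.6% of all tested. The count of calls rested on which libraries were used: without Hdac3f/f replicate 1 there were 1223 higher and 1307 lower, without replicate 2 the counts were 267 and 526, and without replicate 3 they were 285 and 494. Leaving out Lyz2-Cre replicate 1, 2 or 3 gave 419, 403 and 367 higher and 486, 545 and 461 lower. A fit of only the 6 untreated libraries called 581 higher and 1016 lower. These held 500 of the 732 higher and 783 of the 952 lower genes.

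**Figure D1:**
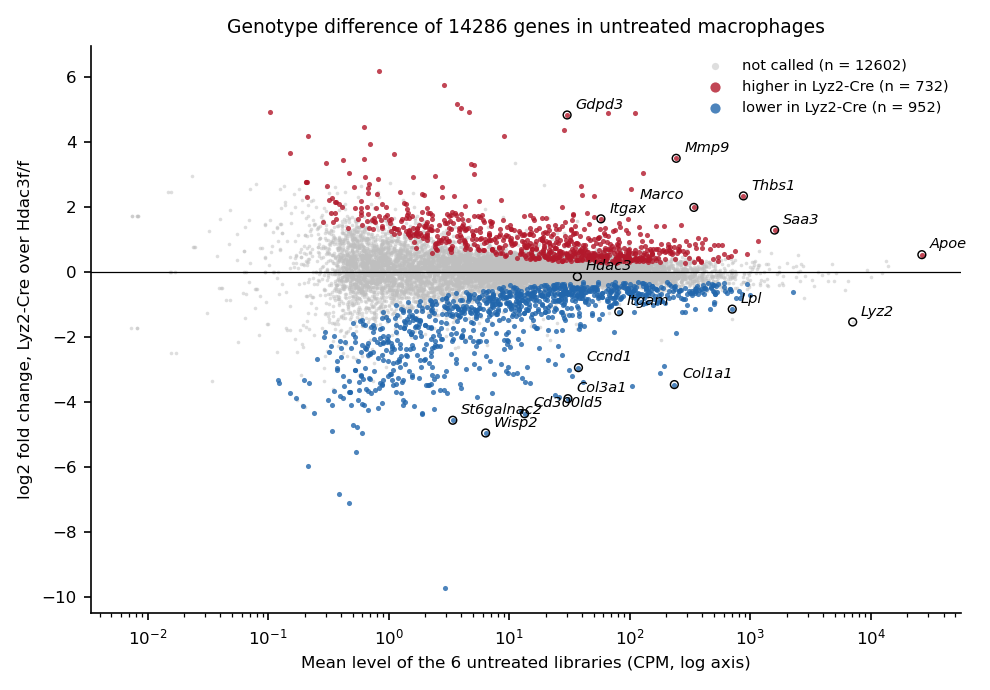
Log2 fold change (Lyz2-Cre over Hdac3f/f, vertical axis) of each tested gene against its mean level in the 6 untreated libraries (CPM, log axis). Points are genes: 732 were called higher (red), 952 lower (blue), and the rest were not called (grey). Hdac3 lies near 0 at -0.14, Gdpd3 at 4.84 and Wisp2 at -4.96.

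The largest rise under the naming rule was that of Gdpd3 (chromosome 7, 126766334 to 126775649), which encodes a lysophospholipase D that makes lysophosphatidic acid. It was at 1.56, 2.24 and 2.30 CPM in Hdac3f/f cells and 48.2, 62.8 and 63.8 CPM in Lyz2-Cre cells, a log2 fold change of 4.84 ± 0.30 (adjusted p = 3.5e-06). Mmp9 (chromosome 2, 164940780 to 164955850), a secreted gelatinase that cuts collagen IV and denatured collagens, went from 44.5, 32.4 and 40.5 CPM to 523, 463 and 350 CPM (3.51 ± 0.22, adjusted p = 3.8e-06). The libraries of the genotypes were far apart for both genes compared with the spread within each. Thbs1, the matrix protein thrombospondin 1, was at 491, 190 and 180 CPM against 2088, 1053 and 1249 CPM (2.35 ± 0.38, adjusted p = 0.00256). Replicate 1 was the highest library of its genotype for Thbs1 on both sides.

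Several of the other large rises encode surface or immune proteins. Il12rb1, a receptor chain shared by interleukins 12 and 23, was at 21.3, 13.2 and 14.6 CPM in Hdac3f/f and 92.8, 77.7 and 81.2 CPM in Lyz2-Cre cells (2.35 ± 0.25). Marco, a scavenger receptor for bacteria and particles, was at 177, 111 and 120 against 434, 619 and 576 CPM (1.99 ± 0.20, adjusted p = 0.000125). Neither gene's groups came near each other. H2-M2, a class I-like gene (2.67 ± 0.35), H2-DMb2, a chain of the class II peptide loader (2.22 ± 0.42), the chemokine gene Ccl8 (2.39 ± 0.32) and Cd7, known from T and NK cells (1.85 ± 0.30), rose as well. So did the kinase gene Wnk2 (2.20 ± 0.22), the potassium channel subunit gene Kcnab1 (2.04 ± 0.36) and the interferon-induced gene Ifit1bl1 (2.01 ± 0.37). Each of these 12 genes was called in all 15 other settings.

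By absolute level, the largest rise was that of Apoe, the lipid carrier secreted by macrophages, at 21641, 19399 and 23665 CPM against 30613, 31321 and 32028 CPM. That is a small fold on a very abundant transcript, 0.54 ± 0.15 (adjusted p = 0.0335), and the call was lost with DESeq2 size factors and when any library but Hdac3f/f replicate 1 was left out. Saa3, an acute-phase apolipoprotein, stood at 847, 901 and 1007 against 2525, 2040 and 2203 CPM (1.30 ± 0.14, adjusted p = 0.00019). C3, the central complement component, stood at 893, 718 and 751 against 1543, 1563 and 1533 CPM (0.97 ± 0.11). The 3 Lyz2-Cre libraries lay close together for C3.

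**Figure D2:**
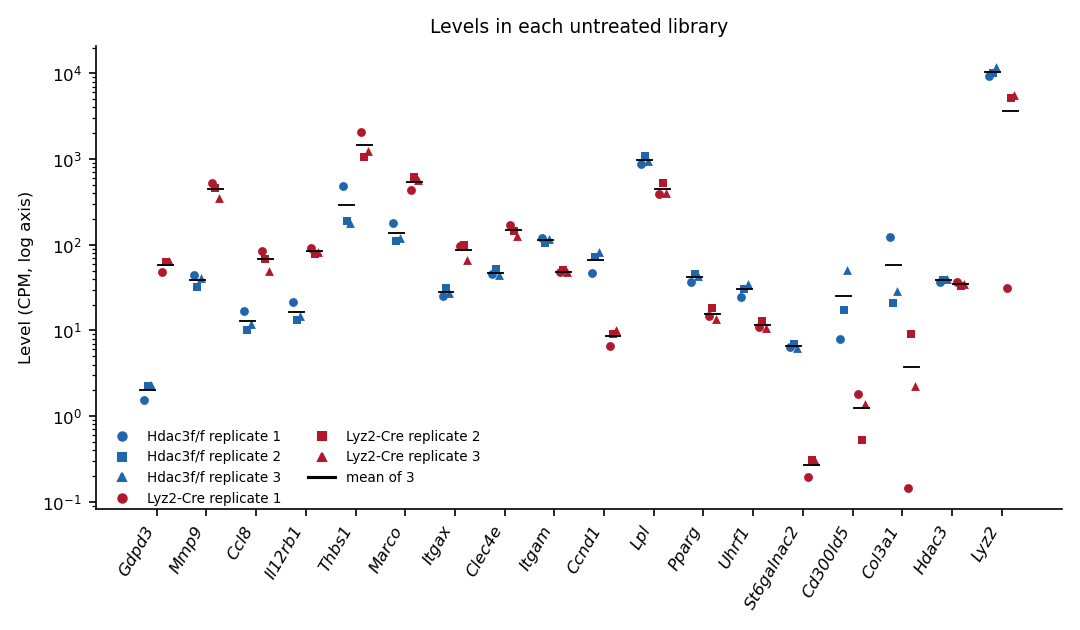
Level in each untreated library (CPM, log axis) of 18 genes named in the text, blue for Hdac3f/f and red for Lyz2-Cre, with a shape for each replicate and a black line at the mean of 3. Mmp9, Itgax, Itgam and Ccnd1 form tight and separate groups, Hdac3 overlaps at 33.1 to 39.7 CPM, and Lyz2 in Lyz2-Cre replicate 1 lies at 31.0 CPM.

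Among the 12 largest falls, 2 did not follow the order of libraries that the others shared. St6galnac2 (chromosome 11, 116675303 to 116694868), a sialyltransferase that caps O-linked sugars, fell from 6.38, 7.01 and 6.19 CPM to 0.194, 0.311 and 0.298 CPM (-4.57 ± 0.45, adjusted p = 9.8e-05). Cd300ld5, a member of the CD300 family of myeloid immunoglobulin-like receptors, fell from 7.94, 17.2 and 51.4 CPM to 1.80, 0.534 and 1.39 CPM (-4.36 ± 0.65, adjusted p = 0.00164). The controls of Cd300ld5 differed widely among themselves, yet the lowest lay above all Lyz2-Cre libraries. The gene has close paralogs beside it, and how shared reads were assigned is not given in the sources used here. The other 10 were highest in Hdac3f/f replicate 1, and many encode matrix proteins.

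Col3a1, fibrillar collagen III, was at 122, 21.1 and 28.9 CPM in Hdac3f/f and 0.146, 8.99 and 2.24 CPM in Lyz2-Cre cells (-3.90 ± 0.88, adjusted p = 0.0149). Col1a1, collagen I, was at 831, 174 and 283 against 9.91, 82.3 and 24.0 CPM (-3.47 ± 0.70, adjusted p = 0.00901). Hdac3f/f replicate 1 was the highest and Lyz2-Cre replicate 1 the lowest library for both, and the spread within each genotype covered several fold. The same order held for Wisp2 (25.3, 5.79 and 5.93 against 0, 0.845 and 0.298 CPM; -4.96 ± 0.82) and for Col6a1 (95.8, 19.9 and 30.1 against 0.826, 6.94 and 2.24 CPM; -3.85 ± 0.70). Falls of like size were found for Loxl1, an enzyme that crosslinks elastin (-4.28 ± 0.70), Dkk3 (-3.86 ± 0.84), Col6a2 (-3.79 ± 0.68), Serpinf1 (-3.74 ± 0.63), the homeobox gene Irx3 (-3.73 ± 0.65), the proteoglycan gene Sdc2 (-3.64 ± 0.76) and the phosphatase gene Alpl (-3.56 ± 0.69). The Col3a1 call was lost with only the untreated libraries and without Lyz2-Cre replicate 3, and the Dkk3 call without that replicate and with limma-voom.

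Several of these genes are markers of stromal cells and fibroblasts, which marrow contains. Of 13 tested stromal markers 9 were lower and none higher, against 6.66% and 5.12% of all tested genes. Their median log2 fold change was -2.99, and none was higher at an unadjusted p under 0.05 in edgeR, with DESeq2 or with limma-voom. Of these markers 5 were called without Lyz2-Cre replicate 3. Their summed level was 1862, 387 and 593 CPM in Hdac3f/f and 32.0, 230 and 105 CPM in Lyz2-Cre libraries. Fewer cells of a type and less RNA per cell cannot be told apart in these bulk libraries, and the part of stromal cells in the results was not tested. Beyond the marker list, of the 482 genes called lower by more than 1 on the log2 scale, 154 (32.0%) were over 2 times higher in Hdac3f/f replicate 1 than in both other controls, against 5.25% of all tested genes. Of those 154 genes, 127 were also lowest in Lyz2-Cre replicate 1, and 143 were also called lower in the LPS-treated libraries, where among all 750 tested genes with that control pattern the counts were 505 and 263. A high control library itself raises the fold by which these genes were selected. Among all 952 genes called lower, 16.2% had the pattern, and the highest control was replicate 3 for 482 genes and replicate 1 for 304.

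Called falls of abundant macrophage genes were smaller. Lpl, lipoprotein lipase, which frees fatty acids from triglyceride, fell from 884, 1076 and 957 CPM to 395, 532 and 397 CPM (-1.14 ± 0.17, adjusted p = 0.00141). Trem2, a lipid-sensing receptor of macrophages and microglia, was at 775, 1087 and 1238 against 677, 582 and 527 CPM (-0.80 ± 0.23, adjusted p = 0.0399). Lrp1, an endocytic receptor, was at 2132, 2897 and 3047 against 1833, 1756 and 1745 CPM (-0.60 ± 0.14, adjusted p = 0.0201). For Trem2 and Lrp1 the first control library lay close to the Lyz2-Cre libraries. Pld3 (-0.70 ± 0.19) and the osteopontin gene Spp1 (-0.78 ± 0.23) fell too. The calls for Trem2, Lrp1 and Pld3 were lost when any library but Hdac3f/f replicate 1 was left out, and that for Spp1 in 6 settings, whereas Lpl was called in all 15.

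Among the lists of pathways and functions with at least 10 tested members, interferon-stimulated genes held the largest shares of members that rose. These genes answer type I and type II interferons through STAT and IRF transcription factors, and a low level is present in resting macrophages. Of 29 tested antiviral effectors 15 rose and none fell (median 0.70), and of 16 interferon-inducible GTPases, which attack the vacuoles of intracellular microbes, 11 rose and none fell (median 0.98). Of 25 interferon receptors, sensors and transcription factors 5 rose and none fell (median 0.35). The share of all tested genes called higher was 5.12%. In the list of receptors, sensors and transcription factors the largest log2 fold change was 0.70. Its count of higher genes changed clearly in 10 alternatives, counting the cut at 1 on the log2 scale, and held in 6. In the GTPase and receptor lists the count of lower genes was 0 with edgeR also at an unadjusted p under 0.05, with DESeq2 and with limma-voom, whereas 1 antiviral gene was lower at an unadjusted p under 0.05 and with DESeq2. Without Hdac3f/f replicate 2, Hdac3f/f replicate 3 or Lyz2-Cre replicate 3 the antiviral count was 4 in each case, and so was the GTPase count. Without Lyz2-Cre replicate 2 each count was 7, and with only the untreated libraries 6 of the GTPases were called.

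Promoter windows of 2 of these genes show the interferon-stimulated response element (ISRE), the site read by STAT and IRF proteins, searched as GAAANNGAAA on both strands. They are RefSeq sequences of build GRCm38.p6, from 250 bases before to 50 after the gene start, in the direction of transcription, with matches in capitals. Rsad2 lies on the minus strand at chr12:26456403-26456702, with the match on the opposite strand of the printed sequence beginning 120 bases before the start. Gbp3 lies on the plus strand at chr3:142559794-142560093, with overlapping matches on the opposite strand at 39 and 45 bases before the start.
Rsad2: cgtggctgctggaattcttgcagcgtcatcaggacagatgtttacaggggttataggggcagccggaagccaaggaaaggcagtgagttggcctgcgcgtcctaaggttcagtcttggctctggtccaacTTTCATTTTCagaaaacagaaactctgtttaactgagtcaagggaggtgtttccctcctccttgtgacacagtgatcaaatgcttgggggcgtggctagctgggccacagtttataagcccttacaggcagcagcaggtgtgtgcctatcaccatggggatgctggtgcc
Gbp3: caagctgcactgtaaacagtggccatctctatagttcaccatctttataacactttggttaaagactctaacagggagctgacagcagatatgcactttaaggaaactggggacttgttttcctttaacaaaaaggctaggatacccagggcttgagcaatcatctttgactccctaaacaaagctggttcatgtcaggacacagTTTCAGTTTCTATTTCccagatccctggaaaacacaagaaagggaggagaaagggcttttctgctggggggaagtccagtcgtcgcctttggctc

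The ISRE letters were present in 13 of 26 windows of the called interferon genes and in 12 of 32 windows of the interferon genes not called. Over all 13002 windows of 10210 tested genes the share was 3.29%, and it was 9.43% in windows of all genes called higher and 2.55% in those called lower. A match describes the letters and does not show a bound factor.

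Rsad2, which encodes the antiviral enzyme viperin, was at 115, 74.5 and 68.6 CPM in Hdac3f/f and 177, 195 and 195 CPM in Lyz2-Cre cells (1.14 ± 0.20, adjusted p = 0.00417). Xaf1, an interferon-induced promoter of cell death, was at 51.2, 39.6 and 35.1 against 96.9, 150 and 114 CPM (1.52 ± 0.20, adjusted p = 0.000695). Mx1, a dynamin-like antiviral GTPase, was at 50.5, 32.2 and 20.8 against 75.0, 98.3 and 95.1 CPM (1.37 ± 0.27). In each of these genes Hdac3f/f replicate 1 was the control nearest to the Lyz2-Cre libraries. Usp18, the protease that removes ISG15 and damps interferon signalling, rose by 0.80 ± 0.14. Among the guanylate-binding proteins, Gbp3 was at 28.9, 19.0 and 13.96 against 43.2, 48.4 and 52.5 CPM (1.22 ± 0.22), and Gbp4 (1.77 ± 0.28), Gbp2 (1.15 ± 0.23) and the little expressed Gbp10 (2.58 ± 0.49) rose too. These genes have close paralogs. The transcription factor gene Stat2 rose by 0.59 ± 0.12 (adjusted p = 0.00776). Zbp1, a sensor of Z-form nucleic acid (0.60 ± 0.14), Irf1 (0.50 ± 0.14) and Dhx58 (0.35 ± 0.11) rose in the fit, and their calls were lost in 4, 7 and 10 of the 15 other settings. Ifnb1, which encodes interferon beta itself, was at 0.173, 0.0487 and 0.102 against 0.437, 0.667 and 0.497 CPM (2.21 ± 0.61, adjusted p = 0.034), a level near that of a few reads, and the call was lost in 6 of the 13 settings that gave Ifnb1 a value.

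Genes of the cell division cycle moved the other way. Of 30 tested genes of DNA replication and S phase 12 fell and none rose (median -0.49), and of 30 genes of mitosis 13 fell and none rose (median -0.65). Among all tested genes 6.66% were called lower and 5.12% higher. The levels were low in all libraries, with the 30 mitosis genes summing to 280, 275 and 269 CPM in Hdac3f/f and 164, 197 and 197 CPM in Lyz2-Cre cells. Of 14 genes of D-type cyclins, CDK4/6 and CDK inhibitors 5 fell and none rose. No member of these 3 lists was higher at an unadjusted p under 0.05 in edgeR, with DESeq2 or with limma-voom (0 in each). The mitosis count was 3 without Hdac3f/f replicate 2 or 3, 2 without Lyz2-Cre replicate 1 and 6 without Lyz2-Cre replicate 2 or 3. The replication count was 6 without Hdac3f/f replicate 3 or Lyz2-Cre replicate 2, and 7 without Hdac3f/f replicate 2 or Lyz2-Cre replicate 1.

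Ccnd1 (chromosome 7, 144929931 to 144939925), cyclin D1, which M-CSF signalling raises as cells enter the cycle, fell from 46.5, 71.0 and 81.5 CPM to 6.51, 9.12 and 10.2 CPM. Its log2 fold change was -2.94 ± 0.24 (adjusted p = 3.2e-05), the largest fall in these cell cycle lists. The CDK4/6 inhibitor gene Cdkn2c (-1.66 ± 0.20), the inhibitor gene Cdkn1c (-2.09 ± 0.50) and Cdk6 (-0.59 ± 0.13) fell as well, so genes of kinase activation and of kinase inhibition were lower together. The Cdk6 call was lost without Lyz2-Cre replicate 3, and the Cdkn1c call in 3 settings that leave out a library. Uhrf1, which carries DNA methylation across replication, fell from 24.4, 30.7 and 35.3 CPM to 10.9, 12.9 and 10.6 CPM (-1.39 ± 0.17, adjusted p = 0.000471). The nucleotide synthesis genes Tk1 (-1.14 ± 0.16) and Rrm2 (-0.85 ± 0.15) and the ligase gene Lig1 (-0.74 ± 0.15) fell. Among mitotic genes, Plk1, a kinase of mitotic entry, was at 12.2, 13.5 and 17.0 against 5.83, 6.49 and 7.11 CPM (-1.14 ± 0.22), and Birc5, which encodes survivin, fell by 1.22 on the log2 scale (-1.22 ± 0.18). The cyclin genes Ccna2 (-0.99 ± 0.22) and Ccnb2 (-0.74 ± 0.17) fell, each with the call lost in 2 settings that leave out a library. Of 18 p53 targets 2 were called, near the share of all tested genes (11.8%), both lower (Phlda3, -1.29 ± 0.17, and Sesn1, -0.83 ± 0.19, the latter lost in 2 settings).

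Promoters of cell cycle genes often hold sites for E2F factors (searched as TTCCCGC) or the cell cycle homology region CHR (TTTGAA), which the DREAM complex reads. Uhrf1, on the plus strand at chr17:56303087-56303386, has an E2F match beginning 48 bases before the start of this window's transcript. Plk1, on the plus strand at chr7:122159185-122159484, has a CHR match at position 31 after its start.
Uhrf1: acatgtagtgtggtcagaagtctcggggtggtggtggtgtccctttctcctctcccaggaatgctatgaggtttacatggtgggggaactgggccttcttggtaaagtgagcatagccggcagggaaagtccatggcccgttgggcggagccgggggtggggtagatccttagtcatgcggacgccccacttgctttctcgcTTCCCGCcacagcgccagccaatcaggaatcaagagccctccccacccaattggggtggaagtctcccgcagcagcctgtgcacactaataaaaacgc
Plk1: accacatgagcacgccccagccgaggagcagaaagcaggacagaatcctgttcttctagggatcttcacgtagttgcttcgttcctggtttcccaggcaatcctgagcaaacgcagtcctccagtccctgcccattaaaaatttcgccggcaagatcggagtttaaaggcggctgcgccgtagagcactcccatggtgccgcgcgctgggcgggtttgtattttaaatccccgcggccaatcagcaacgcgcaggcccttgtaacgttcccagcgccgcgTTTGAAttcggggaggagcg

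Both motifs were searched on both strands, and neither holds the letters of the other. CHR letters were in 7 of 24 windows (29.2%) of the cell cycle genes that fell and in 16 of 30 windows (53.3%) of those not called, and E2F letters in 3 of 24 and 9 of 30. Over all windows the shares were 12.3% and 7.96%.

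**Figure D3:**
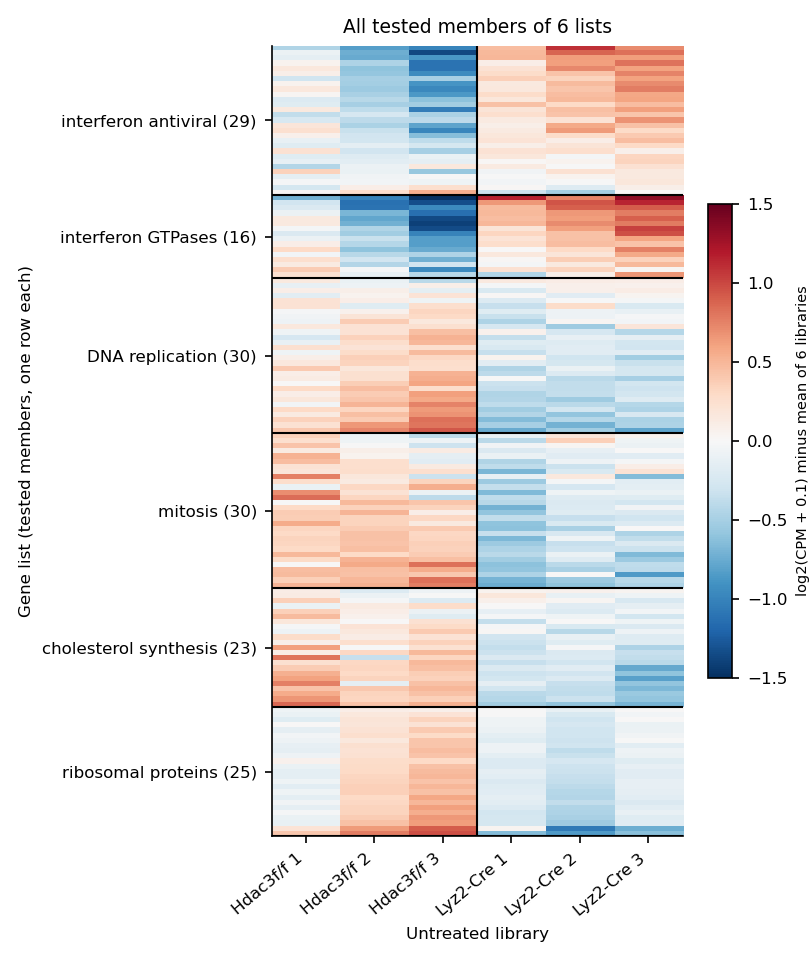
Level of every tested member of 6 gene lists in each untreated library, as log2(CPM + 0.1) minus the gene's mean over the 6 libraries (red above, blue below), rows sorted by log2 fold change within a list. The interferon lists are lighter in Hdac3f/f replicate 1 than in the other controls, and the replication, mitosis, cholesterol and ribosomal lists lean blue in all Lyz2-Cre libraries.

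A further list with falls and no rises was cholesterol synthesis, where 6.66% of all tested genes were called lower and 5.12% higher. Of 23 tested genes of this pathway, which SREBP2 drives when sterol is short, 9 fell and none rose (median -0.59), with 0 higher also at an unadjusted p under 0.05 in edgeR, with DESeq2 and with limma-voom. Msmo1, a sterol oxidase, was at 45.2, 44.7 and 47.5 CPM in Hdac3f/f and 27.8, 26.0 and 21.0 CPM in Lyz2-Cre cells (-0.88 ± 0.13, adjusted p = 0.0018). Fdft1, squalene synthase (-0.90 ± 0.16), and Insig1, a sterol-regulated brake on SREBP (-0.80 ± 0.12), fell, and all 3 named genes were called in every setting. With each library left out in turn, 7 to 10 members of the list were called. Of 15 fatty acid synthesis genes 5 fell and 1 rose. Scd1, the stearoyl-CoA desaturase, fell from 7.16, 1.996 and 2.51 CPM to 0.194, 0.578 and 0.249 CPM (-3.47 ± 0.60), in the library order of the stromal genes. Me1 (-1.31 ± 0.28), Fasn, fatty acid synthase (-0.70 ± 0.16), and Fads2 (-1.12 ± 0.31) fell, while Acsl1, which activates fatty acids in inflammatory macrophages, rose by 1.12 ± 0.13 (adjusted p = 0.000298). The Fads2 call was lost in 6 settings and the Fasn call in 2.

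Lists of genes tied to the nuclear receptors that work with the HDAC3 complexes are described by their called members, and none was tested as a set. Among all tested genes, 5.12% were called higher and 6.66% lower. Of 12 tested LXR targets and efflux genes 2 rose and 1 fell (median 0.00). Abca1, the exporter of cholesterol to apolipoprotein A1, was at 378, 239 and 214 against 626, 526 and 549 CPM (1.03 ± 0.21, adjusted p = 0.00867), Apoe rose as given above, and Scd2 fell (-0.83 ± 0.24, a call lost in 7 settings). Of 13 PPAR gamma and lipid uptake genes 1 rose and 2 fell (median 0.14). Pparg itself fell from 37.0, 45.0 and 42.8 CPM to 14.8, 18.4 and 13.6 CPM (-1.41 ± 0.15, adjusted p = 0.000175), as did its target Lpl, and the lipid droplet gene Hilpda rose (1.12 ± 0.31, a call lost in 6 settings). Of 17 clock and Rev-erb genes 1 was called, Nfil3, which was higher (0.95 ± 0.19). Beside Gdpd3, the lysophospholipid list held 2 further rises, Lpcat2 (0.58 ± 0.14) and Gde1 (0.76 ± 0.21), and 3 falls, of which Gdpd5 was at -0.72 ± 0.21 and Pla2g15 at -0.45 ± 0.13. All 4 of these calls were lost in at least 4 settings. Of 28 respiratory chain genes 0 were called by edgeR (median -0.15), with 1 lower at an unadjusted p under 0.05, 1 lower with DESeq2 and 0 with limma-voom, and 2 of 22 fatty acid oxidation genes fell.

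Surface receptors and adhesion molecules changed by member, and the counts below stand beside 5.12% higher and 6.66% lower among all tested genes. The integrin genes Itgam (chromosome 7, 128062640 to 128118491) and Itgax (chromosome 7, 128129547 to 128150657) are neighbours and encode the alpha chains CD11b and CD11c. Itgam fell from 119, 105 and 116 CPM to 47.5, 50.2 and 48.2 CPM (-1.22 ± 0.12, adjusted p = 0.000115). Itgax rose from 25.2, 31.2 and 27.3 CPM to 97.4, 98.1 and 65.9 CPM (1.64 ± 0.14, adjusted p = 4.4e-05). The pair thus moved in opposite directions, and each was called in all 15 other settings. Of the other integrin genes, Itgb7 (1.22 ± 0.20) and Itgal (0.63 ± 0.14) rose and 10 of the 14 tested were not called. Clec4e, the receptor Mincle for mycobacterial glycolipid, rose from 45.4, 51.6 and 44.7 CPM to 171, 144 and 126 CPM (1.64 ± 0.14, adjusted p = 3.2e-05). Of 14 C-type lectin receptors 3 rose and 3 fell, among the falls Clec10a (-0.80 ± 0.21) and Mgl2 (-2.28 ± 0.60), galactose lectins of alternatively activated cells, whose calls were lost in 5 settings each. Of 11 Fc and TREM receptors, Treml2 (1.17 ± 0.19), Fcgr2b (0.90 ± 0.19) and Fcgr4 (0.73 ± 0.19) rose and Trem2 fell. The Fcgr2b call was lost in 2 settings and the Fcgr4 call in 4.

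Of 21 macrophage lineage factors and receptors 3 rose and 4 fell, where 5.12% and 6.66% of all tested genes did. Cebpa, a transcription factor of myeloid differentiation, was at 559, 680 and 677 against 311, 265 and 291 CPM (-1.14 ± 0.22, adjusted p = 0.00748), called in every setting. Gas6, a ligand that bridges dying cells to receptors such as MERTK, fell by 0.92 on the log2 scale (-0.92 ± 0.19), and Cd33, an inhibitory sialic acid receptor, by 0.88 (-0.88 ± 0.19). Mertk, the receptor, rose by 0.58 ± 0.15 (adjusted p = 0.0265), with Marco and Lyz1 as the other rises. Spi1, which encodes PU.1, was not called (-0.35 ± 0.16, adjusted p = 0.177). Of 10 osteoclast genes, Atp6v0d2 (-1.31 ± 0.31), Dcstamp (-2.11 ± 0.48) and the RANK gene Tnfrsf11a (-0.60 ± 0.12) fell, and Acp5 (0.73 ± 0.10) and Mmp9 rose. The calls for Atp6v0d2 and Dcstamp were each lost in 3 settings that leave out a library. The lysosomal proton pump gene Atp6v0a1 fell from 334, 434 and 440 CPM to 174, 178 and 164 CPM (-1.23 ± 0.13, adjusted p = 0.000193). Of 25 lysosomal genes 3 were called, all lower, near the share of all tested genes called (11.8%). Of 25 ribosomal protein genes 7 fell and none rose (median -0.44), and 12 fell with DESeq2 and 5 with limma-voom. The count of higher genes was 0 with each tool and at an unadjusted p under 0.05 in edgeR. The calls of the 4 named, Rps18 (-1.12 ± 0.25), Rpl37 (-0.58 ± 0.14), Rps4x (-0.50 ± 0.13) and Rpl3 (-0.43 ± 0.10), were each lost in 3 to 6 settings, and reads shared with ribosomal pseudogenes make their values uncertain.

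Chemokine genes split by member. Of 11 tested CC chemokine genes 4 rose and 2 fell, where 5.12% and 6.66% of all tested genes did. Ccl8 went from 16.9, 10.0 and 11.8 CPM to 85.3, 67.9 and 49.6 CPM, and the monocyte attractant genes Ccl7 (1.36 ± 0.22) and Ccl2 (1.11 ± 0.22) rose with it, while Ccl4 (-1.23 ± 0.31) and Ccl3 (-0.81 ± 0.23), inflammatory chemokine genes, fell. Ccl22 was higher by 1.37 ± 0.32 at under 10 CPM. Of 11 CXC chemokine genes 3 rose: Cxcl3 (2.92 ± 0.50) and Cxcl2 (1.85 ± 0.38), both under 5 CPM in every library, and Pf4 (1.06 ± 0.28). The calls for Ccl3, Ccl22 and Pf4 were lost in 5 settings each and that for Ccl4 in 3. Of 18 inflammatory cytokine genes 2 were called, near the share of all tested genes (11.8%). They were Il27 (1.14 ± 0.29) and Ifnb1, both higher and both lost in at least 5 settings. Of 8 genes of arginine, nitric oxide and itaconate metabolism 3 rose: Acod1, the itaconate enzyme, from 22.6, 17.9 and 14.1 CPM to 37.8, 38.0 and 43.3 CPM (1.12 ± 0.17), Arg2 (1.62 ± 0.25) and Nos2, inducible nitric oxide synthase, at 1.39, 0.292 and 0.563 against 5.93, 4.98 and 3.43 CPM (2.63 ± 0.45). Of 13 alternative activation genes 5 fell and 1 rose, the falls including Cd163 (-2.47 ± 0.46) and Ear2 (-2.06 ± 0.47), both at about 2 CPM or less. The Ear2 call was lost in 4 settings and the Cxcl2 call with limma-voom.

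Among regulators, Tnip3, an inhibitor of NF-kB signalling, fell from 22.4, 27.1 and 25.2 CPM to 11.9, 11.8 and 13.03 CPM (-1.02 ± 0.11, adjusted p = 0.00021), and Irak3, which restrains Toll-like receptor signalling, rose (0.84 ± 0.18, a call lost without Hdac3f/f replicate 2 or 3). Of 18 NF-kB subunits and inhibitors 15 were not called. For this and the next lists, 5.12% of all tested genes were called higher and 6.66% lower, together 11.8%. Of 21 immediate early transcription factors 4 fell, with Myc at -1.17 ± 0.29, Egr2 at -0.85 ± 0.20, Egr1 at -0.77 ± 0.18 and Nr4a1 at -0.63 ± 0.13, and 3 rose, among them Nr4a3 (0.98 ± 0.25) and Ier3 (0.89 ± 0.20). Nr4a1 was called in every setting, and the 5 other named calls were lost in 2 to 5. Of 15 genes of prostaglandin and leukotriene synthesis 5 rose. Ptges, which makes prostaglandin E2, went from 3.04, 2.29 and 2.25 CPM to 8.55, 8.01 and 8.76 CPM (1.73 ± 0.15, adjusted p = 4.4e-05), and Hpgd, which breaks prostaglandins down, fell (-1.97 ± 0.45, a call lost without Hdac3f/f replicate 3). Sod2, the mitochondrial superoxide dismutase, rose from 69.8, 73.8 and 77.2 CPM to 175, 155 and 171 CPM (1.18 ± 0.10, adjusted p = 4.4e-05), and Slc7a11, the cystine importer, rose by 1.42 ± 0.26. Of 15 matrix metalloproteinases and inhibitors 6 rose and 3 fell. Beside Mmp9, Mmp2 (1.82 ± 0.32), Mmp8 (1.41 ± 0.28) and Mmp27 (0.85 ± 0.16) rose, and the inhibitor genes Timp1 (-3.13 ± 0.62) and Timp2 (-0.83 ± 0.17) fell. Timp1 had the order of the stromal genes, at 36.4, 7.64 and 13.2 against 0.972, 3.78 and 1.74 CPM, whereas Timp2 did not, at 316, 363 and 389 against 206, 191 and 203 CPM.

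**Figure D4:**
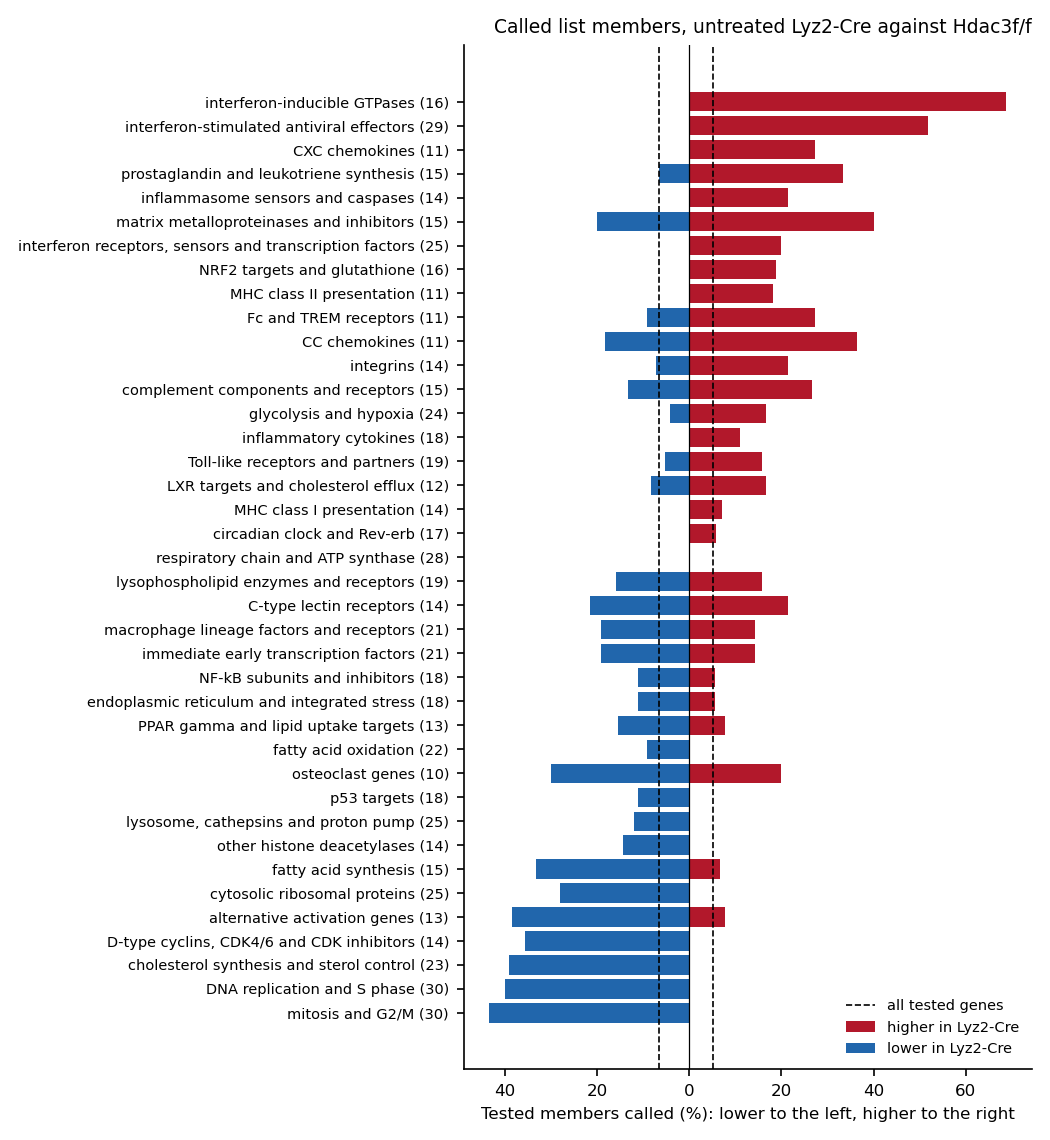
Share of tested members called lower (blue, to the left) and higher (red, to the right) in untreated Lyz2-Cre cells, for each gene list with at least 10 tested members (number in brackets), leaving out markers of other cell types. Dashed lines mark the shares of all tested genes, 6.66% lower and 5.12% higher. Interferon-inducible GTPases (11 of 16) and antiviral effectors (15 of 29) have the largest shares called higher, and mitosis (13 of 30) and replication (12 of 30) the largest called lower.

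Markers of other cells that a marrow culture can hold differed between the genotypes as well, and their part in the results above was not tested. For reference, 5.12% of all tested genes were called higher and 6.66% lower. Of 11 tested mast cell and basophil markers 8 were higher and none lower (median 0.98; 0 lower also at an unadjusted p under 0.05 in edgeR, with DESeq2 and with limma-voom), with summed levels of 107, 130 and 132 CPM in Hdac3f/f and 246, 171 and 248 CPM in Lyz2-Cre libraries. The basophil protease gene Mcpt8 was at 15.1, 16.7 and 16.5 against 37.1, 24.5 and 38.6 CPM (1.05 ± 0.20), and Cd200r3 (1.40 ± 0.28), Hdc (1.02 ± 0.23) and Ms4a2 (0.97 ± 0.22) rose too, the last pair with calls lost in 2 and 3 settings. Their groups did not overlap, which held for 20.0% of all tested genes in that direction. The mast cell count was 2 without Lyz2-Cre replicate 3, 4 without Hdac3f/f replicate 2 or 3, and 5 without Lyz2-Cre replicate 1. Of 16 T and NK cell markers 6 were called higher and 1 lower. In this list 15 had a log2 fold change above 0 (median 1.15), against 53.2% of all tested genes. The receptor chain genes Cd3g (1.31 ± 0.31) and Cd3d (1.14 ± 0.30) stayed under 5 CPM in every library, with calls lost in 3 and 5 settings. The count of T and NK markers called higher was 0 without Hdac3f/f replicate 2 and 2 with limma-voom. Cd4, the marker of this list that was lower, was at 337, 196 and 193 against 99.7, 128 and 161 CPM (-0.90 ± 0.22, a call lost in 3 settings). Cd4 held most of the list's summed level, 361, 213 and 213 against 148, 165 and 209 CPM, so that sum does not show the direction of the other members.

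All 12 tested endothelial markers had a log2 fold change above 0 (median 1.23), and 2 were called higher, Kdr (1.48 ± 0.20) and Pecam1 (1.33 ± 0.33, a call lost in 5 settings), and the summed level was 277, 189 and 175 CPM in Hdac3f/f and 339, 462 and 356 CPM in Lyz2-Cre libraries. At an unadjusted p under 0.05 edgeR had 6 higher, DESeq2 called 5 and limma-voom 3. Cdh5, which defines endothelial cells, was at 20.4, 2.24 and 1.18 CPM against 2.14, 32.4 and 24.8 CPM, so Hdac3f/f replicate 1 and Lyz2-Cre replicates 2 and 3 were high. Kdr, at 32.1, 21.4 and 19.3 against 70.4, 82.1 and 50.5 CPM, did not have that order. Of 13 neutrophil markers 2 were called higher and 2 lower, while 4 had a log2 fold change above 0 and the median was -1.06. Their sums were 633, 431 and 493 against 331, 422 and 403 CPM. The neutrophil alarmin gene S100a8 was at 57.6, 29.9 and 39.8 against 3.74, 16.5 and 16.6 CPM (-1.79 ± 0.50, a call lost in 7 settings). Camp was the other lower marker, a call lost in 9 settings. The higher markers were Mmp8 (1.41 ± 0.28), called in every setting, and Lcn2 (0.56, a call lost in 3 settings). Of 9 megakaryocyte markers all had a log2 fold change above 0 (median 0.89), and 1 was called higher, Pf4. Their sums of 416, 296 and 270 against 1040, 528 and 430 CPM were highest in Lyz2-Cre replicate 1. Pf4 alone made up 327, 175 and 211 against 711, 434 and 344 CPM of these sums. Of 8 inflammatory monocyte markers, Ly6c2 (1.46 ± 0.28) and Plac8 (1.32 ± 0.37) were higher and Chil3 (-1.66 ± 0.49) was lower, the calls for Plac8 and Chil3 being lost in 4 and 7 settings. Of 10 dendritic cell markers Itgax and Ccr7 (1.56 ± 0.24) were higher, while the defining markers Xcr1 and Zbtb46 were under 2 CPM in every library. Only 4 of 11 B cell markers and 3 of 12 erythroid markers passed the filter on low counts.

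**Figure D5:**
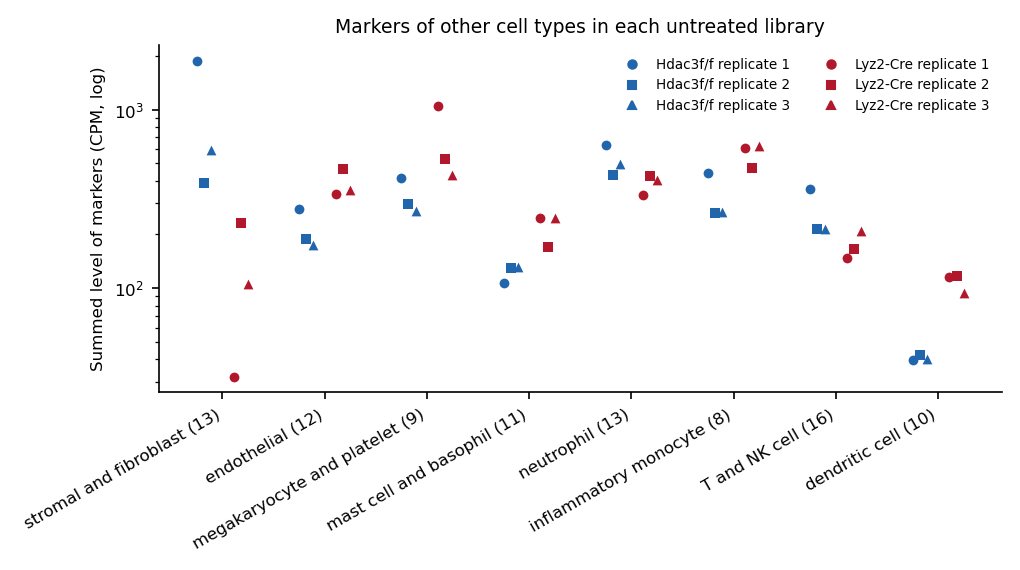
Summed level of tested markers of 8 other cell types (CPM, log axis) in each untreated library, blue for Hdac3f/f and red for Lyz2-Cre, with a shape for each replicate and the number of tested markers in brackets. Stromal markers run from 32.0 CPM in Lyz2-Cre replicate 1 to 1862 CPM in Hdac3f/f replicate 1, and megakaryocyte markers reach 1040 CPM in Lyz2-Cre replicate 1. Pf4 alone holds 711 CPM of the latter, and Cd4 holds most of the T and NK sum in each library.

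The same difference between genotypes was then read in the LPS-treated libraries, which share no sample with the untreated ones but were fitted in the same model. They may share animals with the untreated libraries. Of the 952 genes lower in untreated Lyz2-Cre cells, 547 (57.5%) were also called lower with LPS and 15 (1.58%) higher, where 16.9% and 15.7% of all tested genes were called lower and higher. Of the 732 genes higher in untreated Lyz2-Cre cells, 238 (32.5%) were called higher with LPS and 105 (14.3%) lower. The difference between the contrasts itself was called for 253 of those 732 genes (34.6%), for 111 of the 952 (11.7%) and for 8.12% of all tested genes. That term contains the untreated difference by which the 732 and 952 genes were chosen, so these shares support nothing. The overlap counts moved with the libraries used: leaving out each untreated library in turn gave 281 to 705 genes lower in both and 96 to 428 higher in both. Gdpd3 (5.30 with LPS), Mmp9 (2.98), Marco (0.80), Itgax (3.60), Itgam (-1.31), Ccnd1 (-2.26) and St6galnac2 (-8.26) were called in the same direction with LPS. The antiviral list, with 15 higher and none lower without LPS, had 1 higher and 17 lower with it (median -0.62), and Rsad2 went from 1.14 to -1.26. The S phase list, with 12 lower, had 6 higher and 3 lower with LPS. Cholesterol synthesis genes stayed on the lower side, with 16 of 23 called lower (median -0.62).

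Calls were found on every autosome and on chromosome X. On chromosome X, 1.81% of tested genes were called higher and 9.95% lower, and on chromosome 7, 2.81% and 6.07%. Within 5 Mb of Lyz2, 2 of 46 tested genes were higher and 1 lower, and within 5 Mb of Hdac3, 5 of 79 were higher and 4 lower. Of all tested genes 5.12% were called higher and 6.66% lower. Within 5 Mb of St6galnac2 on chromosome 11, a window chosen after its values were seen, 15 of 178 were higher (8.43%) and 28 lower (15.7%). The median length of genes called higher was 4342 bases and of those called lower 3807 bases, against 3979 bases for all tested genes, by the lengths in the deposited table.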

How the data were processed

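RNA of mouse macrophages grown from bone marrow had been sequenced as 12 libraries, 3 per genotype and treatment, and the comparison uses the 6 untreated ones. Per the submitters' processing notes the reads were handled with TopHat2 and the build mm10; the counting tool, the strand setting and the annotation release are not given in the sources used here. The authors deposited whole-number counts per gene for 54532 genes, with gene lengths (other), and for each contrast log2 ratios and adjusted p-values (p_value), deposited by the authors with Hdac3f/f over Lyz2-Cre. The deposited FPKM values were not used.

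All 12 libraries entered one edgeR 4.0.16 quasi-likelihood model (R 4.3.3) with a coefficient per group, after filterByExpr and scaling by the trimmed mean of M values; p-values were adjusted by Benjamini-Hochberg over 14286 genes at a threshold of 0.05. CPM use the scaled library size, and standard errors are the log2 fold change divided by the root of F. Depth was 16553432 to 18706990 counts per library, and 3 counts, the limit that a count of 0 allows in a library, equal 0.160 to 0.181 CPM of the unscaled total. The script was tested on simulated data.

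Gene lists, markers and the naming rule were chosen with earlier results of these data known. Named genes were Hdac3 and Lyz2, the 12 largest log2 rises and falls among called genes whose higher group reached 5 CPM and whose groups did not overlap, the 6 largest CPM rises and falls, and for each list up to 4 called members of lowest p in the leading direction and 2 in the other; symbols of clones, predicted genes and pseudogenes were left out. Members of the HDAC3 complex and cell type markers could be named at any value. Promoters are RefSeq windows of GRCm38.p6 matched by symbol to 10210 of 14283 tested symbols. Alternatives were up to 15 other settings for each result: other scalings, filters and samples, a replicate block, each library left out, DESeq2 1.42.0 and limma-voom (limma 3.58.1). Same-numbered untreated libraries of the genotypes did not deviate together, so the block is given only in the closing section.

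By the authors' deposited table, 875 genes were higher and 1461 lower at an adjusted p under 0.05; these held 627 of the genes called higher here and 905 of those called lower, with 0 of opposite sign. Some genes are not reported here.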

Additional observations from a re-analysis of the deposited data

Results flagged for a closer look

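For 68 of the 192 named and called genes the genotype difference itself differed between LPS-treated and untreated libraries, by the interaction term of the edgeR model (adjusted p under 0.05 over all tested genes). Values below are that term on the log2 scale, the difference with LPS minus the difference without it. The genes were named for their untreated difference, so the number and the sign of such terms support nothing.

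Interferon genes that were higher in untreated Lyz2-Cre cells had negative terms: Ifnb1 (-2.98), Rsad2 (-2.40), Ifit1bl1 (-2.37), Gbp4 (-1.93), Mx1 (-1.82), Gbp2 (-1.62), Gbp3 (-1.57), Usp18 (-1.42), Irf1 (-1.40), Zbp1 (-1.13), Stat2 (-0.99) and Dhx58 (-0.91). Among cytokine, cytokine receptor, chemokine, metabolic enzyme and secreted defence genes the terms were also negative, for Il27 (-2.92), Il12rb1 (-2.35), Ccl22 (-2.21), Cxcl2 (-1.94), Ccl7 (-1.77), Ccl2 (-1.47), Nos2 (-2.96), Acod1 (-1.91), Arg2 (-1.26), Saa3 (-1.42), C3 (-1.33), Cfb (-0.71), C1ra (-0.69) and Lcn2 (-0.69). So they were for the antigen presentation and surface genes Ciita (-2.32), Cd86 (-1.46), H2-Q7 (-0.85), Ccr7 (-1.34), Itgal (-0.80), Clec4e (-1.37), Treml2 (-1.24), Fcgr4 (-1.11), Marco (-1.20) and Kdr (-2.02), and for the enzyme genes Tgm2 (-1.35) and Hdc (-2.32). Of these, Hdc and Kdr are markers of mast cells and endothelium. In signalling, early response and oxidant defence the terms were Irak2 (-1.03), Ticam1 (-0.72), Mefv (-0.92), Nr4a3 (-1.30), Egr1 (-1.35), Zfp36 (-0.85), Ier3 (-1.05), Ptges (-1.26), Sod2 (-1.39) and Wnk2 (-1.53), where Ticam1, Egr1 and Zfp36 were already lower without LPS and the others higher. In glucose and lipid metabolism they were Slc2a6 (-2.19), Apoe (-0.99), Acsl1 (-0.96), Pfkfb3 (-0.79) and Pfkl (-0.44).

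Genes that were lower in untreated Lyz2-Cre cells and had positive terms, so that the deficit was smaller or turned with LPS, were Me1 (1.51), Lpl (0.90), Pparg (0.88), Hadhb (0.75), Gpi1 (0.49), Gdpd5 (1.31), Cebpa (1.36), Hdac9 (1.38), Uhrf1 (1.03), Tk1 (0.99), Rrm2 (1.10), Cdkn2c (1.22) and Cd163 (3.97). Itgax had a positive term (1.96) on top of its untreated rise, and St6galnac2 a negative one (-3.70) on top of its untreated fall.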

How the results depend on the processing

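Results were recomputed in 15 other settings, except that Ifnb1 had a value in 13 and the overlaps with the LPS contrast in 14, since the fit of the untreated libraries alone holds no LPS contrast. No named and called gene changed direction in any of them: 103 of 192 calls held throughout and 89 were lost at least once, 48 of these only when a library was left out. Hdac3 was not called in any setting, and Lyz2 was called in 2. Leaving out each library in turn gave 267 to 1223 genes higher and 461 to 1307 lower, 4 to 19 antiviral genes and 4 to 14 GTPases higher, 6 to 14 replication and 2 to 12 mitosis genes lower, 5 to 9 stromal markers lower, and 2 to 9 mast cell and 0 to 5 T and NK cell markers higher. The 6 untreated libraries alone called 6 GTPases. Without a filter on low counts 1463 genes were lower and 11 T and NK markers higher, and limma-voom called 2 of the latter. Requiring more than 1 on the log2 scale left 312 higher and 482 lower genes, 3 antiviral, 3 replication, 2 mitosis and 1 cholesterol genes, and 5 mast cell markers. Of the overlaps with the LPS contrast, leaving out each untreated library gave 281 to 705 genes lower in both, 96 to 428 higher in both, 30 to 131 higher without and lower with LPS, and 3 to 34 lower without and higher with LPS. DESeq2 called 969 higher and 1335 lower, and limma-voom 797 and 975.

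Between the untreated genotypes the same replicate numbers did not pair the libraries. The deviations from the group means correlated at -0.40, -0.31 and -0.01 for numbers 1, 2 and 3, and no library correlated best with its own number. A pairing of untreated with LPS-treated libraries of one genotype was not examined. With a replicate block 915 genes were higher and 971 lower. The share of calls that were higher was 43.5% and ran from 33.7% without Hdac3f/f replicate 2 to 48.5% over the settings.

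With 3 libraries per genotype, a gene that was not called is not shown to be equal.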

Other observations

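Genes of lowest p outside the naming rule, and the families below, were chosen after their values were seen and are given as descriptions. St6gal1, which adds alpha-2,6-linked sialic acid to N-linked sugars, was at 41.0, 40.1 and 44.2 CPM in Hdac3f/f and 7.77, 8.99 and 8.90 CPM in Lyz2-Cre cells (-2.29 ± 0.12, edgeR adjusted p = 1.3e-06), a lower adjusted p than that of any gene named above. Of 6 tested genes of the St6gal and St6galnac families 3 were lower, against 6.66% of all tested genes: St6gal1, St6galnac2 and St6galnac1. St6galnac1 was at 1.13, 0.973 and 0.716 CPM against 0 counts in all 3 Lyz2-Cre libraries, at least 19.8-fold lower with the 0 set to a floor of 3 counts over the group. St6galnac4 was at 80.0, 83.2 and 90.9 against 80.5, 78.9 and 81.2 CPM and was not called. With LPS, St6gal1 was not called (-0.32), and only 32 and 31 counts were left in the 3 libraries of each genotype.

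The CD300 family, paired activating and inhibitory receptors of myeloid cells encoded side by side on chromosome 11, split by member. Of 10 tested genes 4 were lower and 2 higher, against 6.66% and 5.12% of all tested genes. Cd300ld4 fell from 41.6, 48.5 and 49.8 CPM to 7.39, 7.56 and 9.10 CPM (-2.54 ± 0.27), and Cd300lb from 178, 181 and 197 CPM to 106, 95.2 and 94.0 CPM (-0.91 ± 0.14). Cd300ld rose from 28.2, 23.9 and 20.9 CPM to 58.3, 52.1 and 48.6 CPM (1.12 ± 0.21), and Cd300lf rose as well (1.26 ± 0.32). Cd300a, at 268, 263 and 284 against 296, 230 and 300 CPM, was not called. These genes are near-identical in part, and the assignment of shared reads is not given in the sources used here.

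The paired receptor genes Pilra (1.22 ± 0.12), Pilrb1 (1.33 ± 0.11) and Pilrb2 (1.20 ± 0.12) rose together, as did Fpr2, a receptor for formyl peptides and serum amyloid A, from 12.9, 14.99 and 16.4 CPM to 40.2, 37.0 and 51.3 CPM (1.54 ± 0.14). Anxa1, which encodes annexin A1, another ligand of that receptor, fell from 321, 419 and 402 CPM to 134, 105 and 69.4 CPM (-1.89 ± 0.19). Bst1, a surface enzyme that makes cyclic ADP-ribose, rose from 34.1, 44.5 and 50.7 CPM to 111, 107 and 102 CPM (1.31 ± 0.13), and Ank, a pyrophosphate transporter, fell from 42.9, 40.7 and 44.5 CPM to 15.5, 15.9 and 14.8 CPM (-1.47 ± 0.12).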
